A study of Mus musculus with 2 samples.

Results

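The C/EBP family is a set of transcription factors that bind CCAAT-like DNA sequences, and 6 genes carrying the family name were analyzed here: Cebpa, Cebpb, Cebpd, Cebpe, Cebpg and Cebpz. They were picked by gene symbol, with earlier results of these data already known, and all 6 were found among the 24421 symbols listed. RNA was measured by bulk RNA-seq in granulocyte-monocyte progenitors (GMPs), flow-sorted BM cells that are the source of neutrophils and monocytes. NTB-GMP was the library from non-tumor-bearing female mice. 4T1-GMP was the library from female mice bearing orthotopic 4T1 tumors, grown from a carcinoma line of mouse mammary origin. The labels give both groups an F1 semi-syngeneic (H-2b/d) background and no transgene or deletion, and mice were 8 to 12 weeks of age per the methods, which name BALB/c and C57BL/6 animals. The sources used here do not say how many mice went into a library.

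There was 1 library per group, so no difference below has a replicate check and no p-value can be given. Intervals are 95% intervals on the whole reads behind each value. They cover counting error only, since reads without molecular identifiers are not independent molecules, and they compare these libraries, not the conditions. Levels are RPKM, the reads of a gene divided by its length and by a library size that appears to include TMM scaling (a factor that evens out the bulk of genes), since the sizes were not whole numbers and their ratio was close to the TMM one. Ratios are 4T1-GMP over NTB-GMP after adding 0.1 RPKM and taking log2, a step that shrinks the difference of low genes. They are given among 10378 tested genes, those whose mean RPKM reached 1. The library size behind the RPKM was 10180365 for NTB-GMP but 30016263 for 4T1-GMP, so the values of 4T1-GMP carry the smaller counting error. Because these are bulk samples, fewer cells of a type and less RNA per cell cannot be told apart.

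C/EBP proteins other than Cebpz share a basic leucine zipper (bZIP), by which they pair with each other and with related factors and bind DNA. In the BM, C/EBPα is needed for the step into the GMP stage and for steady-state granulopoiesis, C/EBPβ is known for emergency granulopoiesis, the rapid output of neutrophils under infection or cytokine demand, and C/EBPε drives the later steps in which secondary granules are made. C/EBPδ is induced in acute-phase and G-CSF responses, C/EBPγ lacks an activation domain of its own and acts through its partners, and Cebpz, in spite of its symbol, encodes a CCAAT-binding and ribosome-biogenesis protein without the bZIP.

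The members differed in direction. Cebpb, Cebpd and Cebpe were higher in 4T1-GMP, Cebpa and Cebpg were lower, and Cebpz lay within its counting interval. All 6 members passed the minimum mean RPKM of 1. Only Cebpb was past 2-fold, 1 of 6 members, where 8.17% of all tested genes were past 2-fold, 3.25% higher and 4.92% lower. At 1.5-fold, 2 of 6 members were higher and 0 were lower, against 9.8% and 11.6% of all tested genes. The median log2 ratio of the members was 0.27, and that of all tested genes was 0.05.

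**Figure D1:**
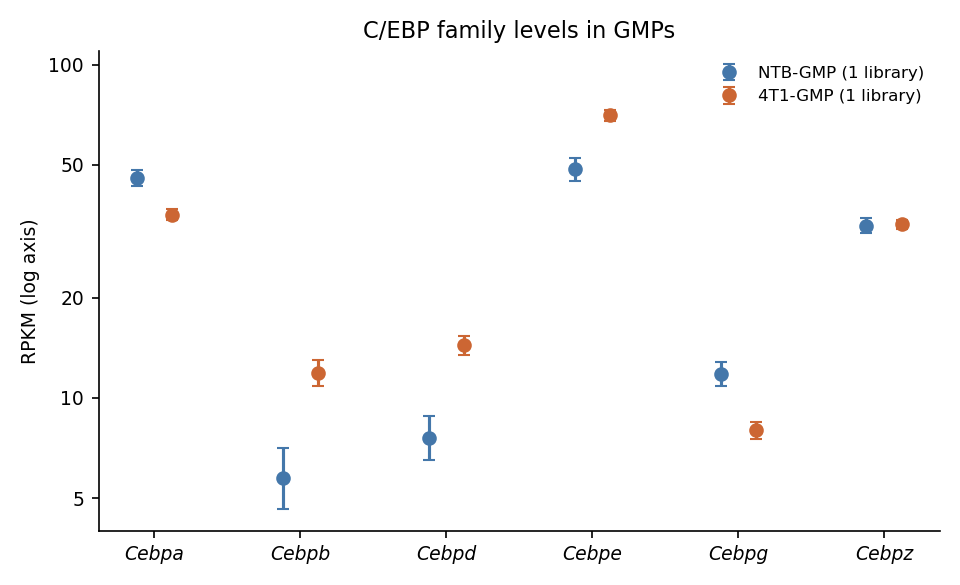
RPKM (log axis) of each C/EBP member in the NTB-GMP and the 4T1-GMP library, 1 point per library, with bars for the 95% exact Poisson interval on the reads. Cebpe and Cebpa lead in NTB-GMP at 48.5 and 45.6 RPKM, and Cebpe stands alone at the top in 4T1-GMP at 70.4 RPKM.

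Cebpa encodes C/EBPα, the family's steady-state regulator in GMPs. It lies on chromosome 7 of GRCm38 from 35119293 to 35121928 (plus strand), in the annotation of GENCODE M21. Its level was 45.6 RPKM in NTB-GMP (1226 reads, interval 43.1 to 48.3) against 35.5 RPKM in 4T1-GMP (2816 reads, interval 34.2 to 36.9). The level intervals did not overlap. The log2 ratio was -0.36 (95% Clopper-Pearson interval -0.46 to -0.26), and 19.9% of tested genes had a lower ratio. Cebpa was still abundant in both libraries, above 87.7% of tested genes in NTB-GMP and 81.1% in 4T1-GMP.

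Cebpb encodes C/EBPβ and is an intronless gene on chromosome 2 (167688915 to 167690418, plus strand). It was the lowest member in NTB-GMP, at 5.76 RPKM (89 reads, interval 4.63 to 7.09), and had 11.9 RPKM in 4T1-GMP (543 reads, interval 10.9 to 13). The log2 ratio was 1.04 (interval 0.72 to 1.39), so the interval included values under 2-fold, and 97% of tested genes had a lower ratio. The call at 2-fold was lost in 3 of 6 alternatives, at 0.93 with a pseudocount of 1, 0.88 with Rn45s reads left out of the library sizes and 0.99 with ratios centred on the median gene. TMM, among the alternatives that kept it, nearly repeats the deposited scaling. The Rn45s setting subtracts unscaled reads from library sizes that appear TMM-scaled, so it mixes scales. In the annotation, 312 exonic bases of Cebpb are shared with Tmem189 on the other strand. Tmem189 had 10.3 RPKM in NTB-GMP against 14.1 RPKM in 4T1-GMP (log2 ratio 0.44), and whether strand was used in counting is not given in the sources used here.

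Cebpd encodes C/EBPδ, on chromosome 16 (15887286 to 15891031, plus strand). It had 7.61 RPKM in NTB-GMP (175 reads, interval 6.52 to 8.82) against 14.4 RPKM in 4T1-GMP (976 reads, interval 13.5 to 15.3). The log2 ratio was 0.91 (interval 0.69 to 1.16), just under 2-fold, with 96.2% of tested genes lower in ratio. Cebpd shares 562 exonic bases with Spidr on the other strand, which was lower in 4T1-GMP, at 18.6 and 14.4 RPKM (log2 ratio -0.36). Cebpb and Cebpd, both linked to induced rather than steady-state granulopoiesis, thus showed the largest ratios of the family. Their own ratio to each other was 1.32 in NTB-GMP and 1.21 in 4T1-GMP (Cebpd over Cebpb), a log2 change of -0.13 whose interval (-0.55 to 0.28) included 0.

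Cebpe encodes C/EBPε, on chromosome 14 (54710360 to 54712174, minus strand, 2 exons). It had 48.5 RPKM in NTB-GMP (611 reads, interval 44.7 to 52.5) against 70.4 RPKM in 4T1-GMP (2616 reads, interval 67.7 to 73.1). The difference, a log2 ratio of 0.54 (interval 0.41 to 0.67), was smaller than those of Cebpb and Cebpd on the ratio scale but much the largest in RPKM since Cebpe was also the member with the highest level. In 4T1-GMP it stood above 91.1% of tested genes.

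Cebpg, which encodes the partner-dependent C/EBPγ, lies on chromosome 7 like Cebpa (35046422 to 35056573, minus strand), with 62719 bases between them that also hold the lincRNA gene Gm45096. It had 11.8 RPKM in NTB-GMP (566 reads, interval 10.9 to 12.8) against 7.99 RPKM in 4T1-GMP (1127 reads, interval 7.53 to 8.47). Its log2 ratio of -0.56 (interval -0.71 to -0.42) was the lowest of the family, and Cebpa and Cebpg were its only members lower in 4T1-GMP by more than the counting interval.

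Cebpz lies on chromosome 17 (78919006 to 78937066, minus strand). It had 32.9 RPKM in NTB-GMP (1367 reads) against 33.2 RPKM in 4T1-GMP (4063 reads), for a log2 ratio of 0.01 (interval -0.08 to 0.10). Its sign turned with the scaling, to -0.15 without Rn45s reads, -0.04 after centring on the median gene and -0.11 after quantile normalization. Cebpz shares 171 exonic bases with Cebpzos, the gene on its other strand, which had 3.7 and 4.1 RPKM.

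**Figure D2:**
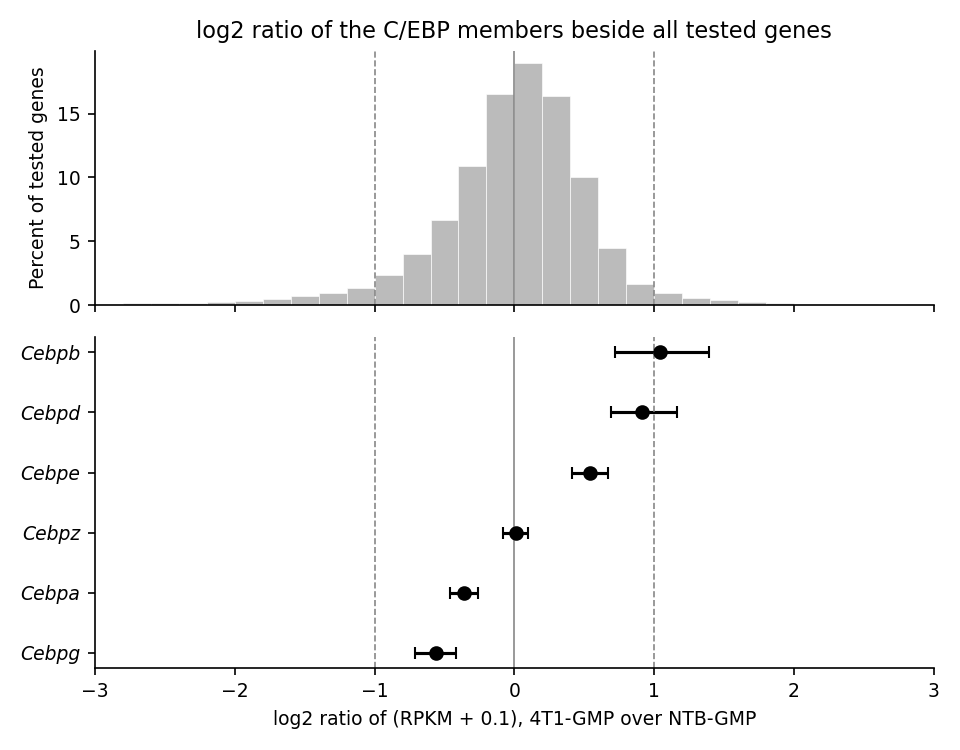
Top, percent of the 10378 tested genes in each bin of the log2 ratio (4T1-GMP over NTB-GMP). Bottom, the log2 ratio of each member with its 95% Clopper-Pearson interval on the reads, on the same axis, with dashed lines at 2-fold. Cebpb (1.04) and Cebpd (0.91) lie in the upper tail of all genes, Cebpg (-0.56) and Cebpa (-0.36) on the lower side, and Cebpz (0.01) in the middle.

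A ratio of members within a library does not depend on its library size, so it was computed for all 15 pairs. In 14 of the 15 the interval of the change between libraries left out 0, the exception being Cebpd over Cebpb. The level of Cebpe relative to Cebpa was 1.06 in NTB-GMP and 1.98 in 4T1-GMP, a log2 change of 0.90 (exact conditional interval 0.74 to 1.06). For Cebpb over Cebpa, the pair that sets the emergency regulator against the steady-state one, the ratio was 0.126 in NTB-GMP and 0.335 in 4T1-GMP, 2.66-fold higher (log2 change 1.41, interval 1.07 to 1.76). Cebpd over Cebpa went from 0.167 to 0.405 (log2 change 1.28, interval 1.03 to 1.54). Among the pairs with Cebpa the change was least for Cebpg over Cebpa, at 0.259 and 0.225 (log2 change -0.21, interval -0.38 to -0.03).

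**Figure D3:**
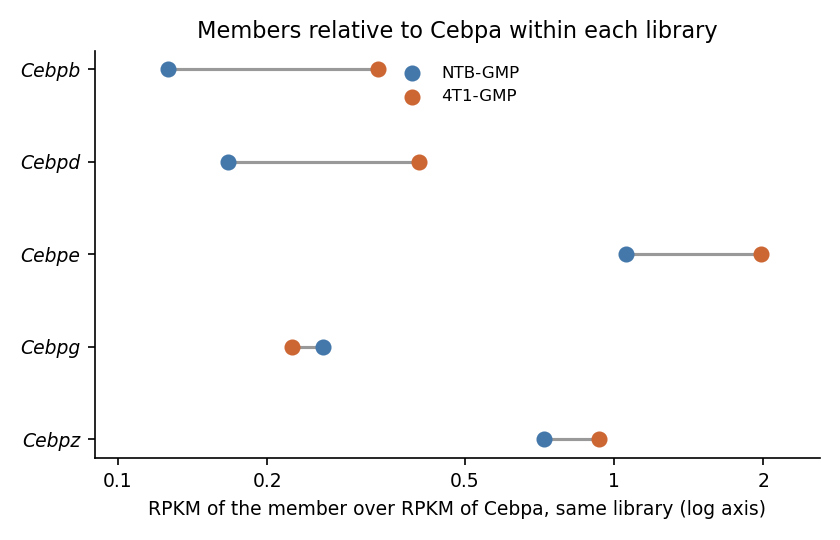
RPKM of each member divided by the RPKM of Cebpa in the same library (log axis), with a line joining the NTB-GMP and the 4T1-GMP point. Cebpb moves from 0.126 to 0.335, Cebpd from 0.167 to 0.405 and Cebpe from 1.06 to 1.98, while Cebpg moves the other way, from 0.259 to 0.225.

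The order of the members differed between libraries. In NTB-GMP it was Cebpe, Cebpa, Cebpz, Cebpg, Cebpd and Cebpb, and the pair at the top did not differ beyond counting error (log2 ratio of levels 0.09, interval -0.06 to 0.23). In 4T1-GMP it was Cebpe, Cebpa, Cebpz, Cebpd, Cebpb and Cebpg. There Cebpe was above Cebpa by a log2 ratio of 0.99 (interval 0.91 to 1.06), and Cebpa was above Cebpz by only 0.10 (interval 0.03 to 0.17). Cebpg moved from above Cebpd and Cebpb to below both. Of the RPKM summed over the 5 bZIP members, Cebpe made up 40.6% in NTB-GMP and 50.2% in 4T1-GMP, and Cebpa 38.3% and 25.3%. Cebpb and Cebpd together remained the smaller part, with 4.83% and 6.38% in NTB-GMP and 8.5% and 10.3% in 4T1-GMP.

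The promoters of Cebpb and Cebpa are printed because their ratios went in opposite directions. They come from the RefSeq table of GRCm38.p6, which matched 3 of the 6 members (Cebpa, Cebpb and Cebpg). Each run is the 250 bases before the start site, on the plus strand, and capitals mark the letters TGACG or, on the other strand, CGTCA, the core of the cAMP response element bound by CREB, a factor that acts downstream of cytokine receptors.
Cebpb, chr2:167688665-167688914: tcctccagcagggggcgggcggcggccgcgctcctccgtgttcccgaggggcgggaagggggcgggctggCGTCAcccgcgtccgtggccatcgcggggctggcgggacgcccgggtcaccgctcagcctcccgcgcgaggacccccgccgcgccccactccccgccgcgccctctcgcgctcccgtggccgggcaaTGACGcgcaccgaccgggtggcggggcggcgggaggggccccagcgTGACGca
Cebpa, chr7:35119043-35119292: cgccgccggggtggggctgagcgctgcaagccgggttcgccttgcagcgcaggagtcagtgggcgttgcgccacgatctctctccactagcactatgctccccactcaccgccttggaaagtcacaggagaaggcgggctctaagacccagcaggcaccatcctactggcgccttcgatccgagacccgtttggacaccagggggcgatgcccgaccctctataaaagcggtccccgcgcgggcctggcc
The Cebpb run holds 3 matches, and the Cebpa run holds 0, as does the promoter of Cebpg. The letters occur in 20.8% of all 32851 promoters of 300 bases in the table, and the Cebpb run has a GC content of 81.6%, against a median of 52.4% over all promoters. The letters TTCNNNGAA, to which STAT factors bind, were in 0 of the 3 member promoters and in 8.3% of all promoters. A match is a description of letters, and no match concerns only this window. Both motifs were chosen after the values were seen.

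Upstream of these genes stand the receptors of the granulocyte cytokines and their JAK-STAT signaling. Of 18 such genes, 16 passed the minimum level, and the median log2 ratio was -0.05, against 0.05 over all tested genes. In 4T1-GMP 2 were at least 2-fold higher, against 3.25% of all tested genes, and 0 at least 2-fold lower, against 4.92%. The counts turned with the scaling, to 1 higher and 2 lower without Rn45s reads, where Csf3r lost the call, and to 2 and 2 after median centring. The receptor of G-CSF, Csf3r, had 43.2 RPKM in NTB-GMP against 92.2 RPKM in 4T1-GMP, for a log2 ratio of 1.09 (interval 1.02 to 1.17). Socs3, the feedback inhibitor induced by STAT3, was near 0 in NTB-GMP, at 0.216 RPKM, and had 7.19 RPKM in 4T1-GMP (log2 ratio 4.53). Socs3, too, passed the minimum only through 4T1-GMP. The reads recovered for it, 1 and 98, are lower bounds, and the interval on them ran from 2.54 to 10.37. Pim1, a kinase gene that STATs induce, had 35.5 and 68 RPKM (log2 ratio 0.94), and Stat3 itself 30.4 and 40.8 RPKM (0.42).

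Other receptors went the other way, so the genes of this group differed in direction. Il6st, the shared signaling chain of IL-6 family receptors, had 11.9 RPKM in NTB-GMP against 5.9 RPKM in 4T1-GMP, 2.02-fold lower in RPKM and just short of 2-fold once the pseudocount was added. Il3ra, the IL-3 receptor alpha chain, had 12.3 and 6.19 RPKM (log2 ratio -0.98), and Il6ra, which binds IL-6, had 10.3 and 6.28 RPKM (-0.70). Creb1, which encodes CREB, had 19.3 and 20.4 RPKM (log2 ratio 0.07).

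The proteins that pair with C/EBPs or set their amount were described from a list of 15 genes, of which 10 passed the minimum level. At least 2-fold higher were 2 (1 with a pseudocount of 1 or without Rn45s reads), against 3.25% of all tested genes. At least 2-fold lower were 0, against 4.92%, and the median log2 ratio was 0.21. The highest were Nfil3, a bZIP repressor, with 1.87 RPKM in NTB-GMP against 5.57 RPKM in 4T1-GMP (1.52 as a log2 ratio, interval 1.08 to 2.10), and Atf5, a bZIP stress factor, with 3.25 and 7.25 RPKM (1.13, interval 0.78 to 1.55). Atf4, a stress factor and known partner of C/EBPγ, had 88 and 129 RPKM (log2 ratio 0.55). The ratio of Atf4 was positive and that of its partner gene Cebpg was negative.

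The lowest tested genes of this list were Pcbp2, an RNA-binding protein that can hold back Cebpa translation, with 104 and 68.1 RPKM (log2 ratio -0.61), Ddit3, which encodes the C/EBP-related CHOP, with 6.43 and 4.21 RPKM (-0.60), and Fbxw7, a ubiquitin ligase subunit, with 7.67 and 5.27 RPKM (-0.53). Calr, another regulator on this list, went the other way, with 1520 and 2140 RPKM (0.49). Celf1, also on the list, had 22.3 and 17 RPKM (-0.39). Trib1 and Trib2, Tribbles proteins that direct C/EBPα to degradation by the ligase Cop1, and their relative Trib3 were under the minimum level. Trib2 had 0.936 RPKM in NTB-GMP (40 reads) against 0.00794 RPKM in 4T1-GMP (1 read), with an interval of the log2 ratio of reads from -12.22 to -4.32. Trib1 had 0.854 and 0.695 RPKM (35 and 84 reads), and its interval (-0.88 to 0.32) included 0. Cop1 had 19.6 and 19.2 RPKM, a log2 ratio of -0.03.

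Among granule genes, those known to depend on C/EBPε or to follow it in maturation differed most. Of 19 such genes, 17 passed the minimum level. In 4T1-GMP 14 of these were at least 2-fold higher, against 3.25% of all tested genes, and 0 at least 2-fold lower, against 4.92%. The median log2 ratio of the 17 was 1.93, a value that includes 3 genes that could pass only by being higher. Mmp8, Mmp9 and Olfm4 were under 1 RPKM in NTB-GMP and passed only through their level in 4T1-GMP, so they had to differ, and Mmp25 and Itgb2l did not pass. Of the other 14 tested genes, 11 were at least 2-fold higher. The highest were the matrix metalloproteinase genes Mmp9, with 0.588 RPKM in NTB-GMP against 15.6 RPKM in 4T1-GMP (log2 ratio 4.52), and Mmp8, with 0.521 and 14.1 RPKM (4.51), and S100a9, a calprotectin subunit, with 189 and 1970 RPKM (3.38). Ltf, which encodes lactoferrin and is a classic C/EBPε target, had 11.1 and 42 RPKM (log2 ratio 1.90, interval 1.75 to 2.08). The lowest were Padi4, a histone-modifying enzyme of neutrophils, with 2.6 and 2.85 RPKM (0.13), Lyz2, lysozyme, with 63.9 and 72.7 RPKM (0.18), and Chil3, a chitinase-like protein, with 7.02 and 11.1 RPKM (0.66). Cebpe itself had a log2 ratio of 0.54, below all but 2 of the list's tested genes, Padi4 and Lyz2.

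Promoter stretches of 6 of these granule genes are printed because they hold a C/EBP-type motif, TTGCNNAA or, on the other strand, TTNNGCAA, which is in capitals. Coordinates are GRCm38.p6, each run is read in the direction of the gene, and Ngp and Fcnb have a pair of matches each.
Ltf, chr9:111019201-111019240, plus strand: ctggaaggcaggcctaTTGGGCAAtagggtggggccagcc
Ngp, chr9:110419654-110419693, plus strand: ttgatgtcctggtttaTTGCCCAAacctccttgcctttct
Ngp, chr9:110419781-110419820, plus strand: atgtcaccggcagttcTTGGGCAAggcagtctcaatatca
Lcn2, chr2:32387932-32387971, minus strand: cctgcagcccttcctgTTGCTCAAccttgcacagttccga
Mmp8, chr9:7558394-7558433, plus strand: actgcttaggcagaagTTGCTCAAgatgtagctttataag
Fcnb, chr2:28085090-28085128, minus strand: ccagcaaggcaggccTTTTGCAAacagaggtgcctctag
Fcnb, chr2:28084978-28085017, minus strand: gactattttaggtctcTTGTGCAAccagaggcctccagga
S100a9, chr3:90695934-90695971, minus strand: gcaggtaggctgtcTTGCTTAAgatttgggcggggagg
The motif was in 6 of the 17 promoters of 300 bases found for the 19 genes (35.3%), in 3 of 14 promoters found for 11 primary granule and GMP genes (21.4%), in 0 of 3 member promoters and in 10.8% of all promoters. The strict palindrome TTGCGCAA, the main setting, also matches the looser letters, and was in 0 of the 17 and in 0.183% of all promoters. The base composition of the granule gene promoters was not compared with that of all promoters. No binding was measured in these libraries.

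Primary granule and GMP genes, many of them linked to C/EBPα, differed less. All 12 passed the minimum level, with a median log2 ratio of 0.79. In 4T1-GMP 4 were at least 2-fold higher, against 3.25% of all tested genes, and 1 was at least 2-fold lower, against 4.92%. Without Rn45s reads, and likewise after quantile normalization, 2 were at least 2-fold higher. Ms4a3, a GMP marker, had 479 RPKM in NTB-GMP against 1220 RPKM in 4T1-GMP (log2 ratio 1.35), Prtn3, proteinase 3, had 1400 and 3310 RPKM (1.24), and Ctsg, cathepsin G, had 1390 and 3000 RPKM (1.11). The lowest were Bex6, with 21 and 10.1 RPKM (-1.05), Mpo, myeloperoxidase, with 5160 and 5620 RPKM (0.12), and Mgst1, a glutathione transferase, with 15.4 and 20 RPKM (0.38). Cebpa was lower in 4T1-GMP while 11 of these 12 genes were higher, as were 54.7% of all tested genes, and the ratio of Mpo is smaller than the shift of -0.16 that leaving out Rn45s reads gives.

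**Figure D4:**
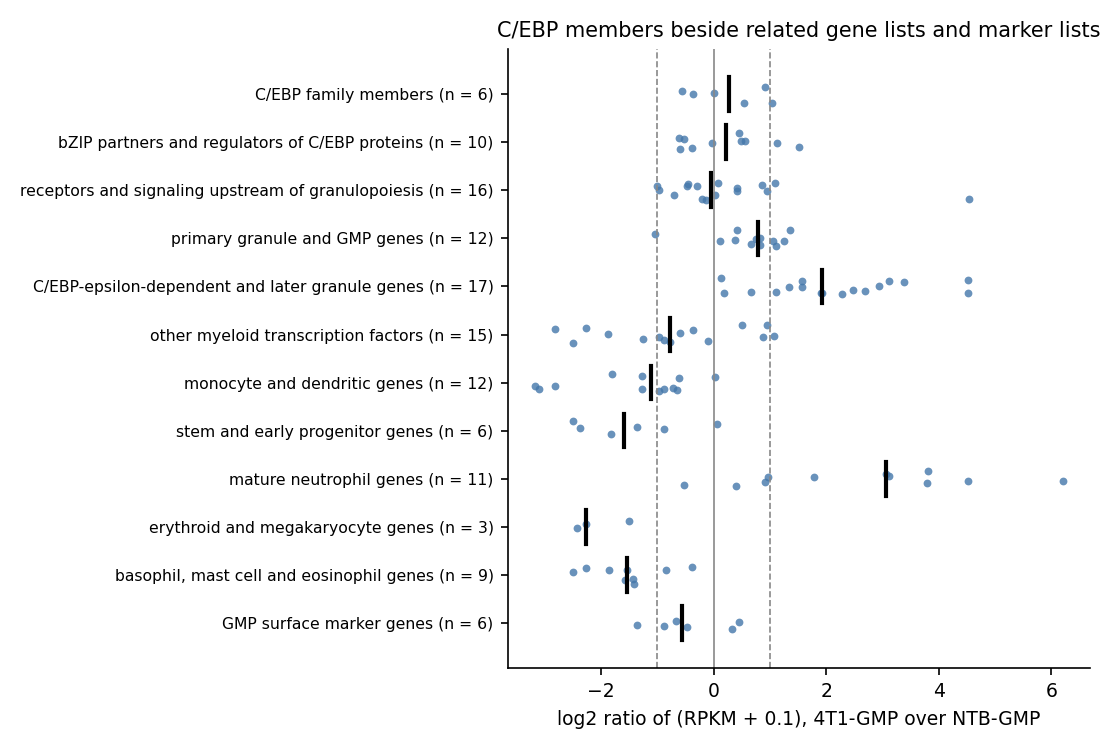
log2 ratio (4T1-GMP over NTB-GMP) of each tested gene in the C/EBP family, in related gene lists and in marker lists, 1 point per gene, with a bar at each median and dashed lines at 2-fold. Points are spread vertically at random, and the lymphoid list, with 1 tested gene, is left out. The later granule genes and mature neutrophil genes lie to the right, and monocyte, stem, erythroid and basophil lists to the left. The medians include genes that passed the minimum only through 1 library, among them 3 later granule and 5 mature neutrophil genes through 4T1-GMP.

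Other transcription factors of myeloid lineage choice were mostly lower in 4T1-GMP. Of 17, 15 passed the minimum level, and the median log2 ratio was -0.78. At least 2-fold higher was 1 (0 with a pseudocount of 1 or without Rn45s reads, 2 after quantile normalization), against 3.25% of all tested genes. At least 2-fold lower were 5, against 4.92%. Of these, Gata1 was under 1 RPKM in 4T1-GMP and passed only through NTB-GMP. Irf8, a factor of monocyte and dendritic fate that restrains C/EBPα in these cells, had 32 RPKM in NTB-GMP against 4.45 RPKM in 4T1-GMP (log2 ratio -2.82). Gata2 had 29.5 and 5.14 RPKM (-2.50), and Gata1 4.23 and 0.806 RPKM (-2.26). Both act in erythroid and mast cell fates. The highest were Mxd1, a MYC antagonist of differentiating cells, with 4.72 and 10 RPKM (1.07), Bcl6, a repressor, with 2.39 and 4.73 RPKM (0.95), and Gfi1, a repressor needed for granulopoiesis, with 45 and 82.7 RPKM (0.88).

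Markers of other cell types also differed between the libraries. For the counts below, 3.25% of all tested genes were at least 2-fold higher in 4T1-GMP and 4.92% at least 2-fold lower. Of the 11 mature neutrophil genes, 5 were under 1 RPKM in NTB-GMP and passed the minimum only through 4T1-GMP, so they had to be higher there. Of the other 6, 2 were at least 2-fold higher in 4T1-GMP and 0 were at least 2-fold lower. The summed level of all 11 was 190 RPKM in NTB-GMP against 332 RPKM in 4T1-GMP. None was at 0, and the surface marker Ly6g had 0.426 and 4.3 RPKM. Of the 9 basophil, mast cell and eosinophil genes, 8 reached 1 RPKM in both libraries and 6 of these were at least 2-fold lower, and the summed level was 1830 and 651 RPKM. The sum over 15 monocyte and dendritic genes was 325 and 151 RPKM, with 4 of the 10 genes that reached 1 RPKM in both libraries at least 2-fold lower. Batf3 had 0.552 and 0 RPKM (1 and 0 recovered reads), too few to compare. For 11 stem and early progenitor genes the sum was 229 and 85.2 RPKM, with 4 of 6 tested genes at least 2-fold lower. Ly6a had 0 and 0.266 RPKM (0 and 4 recovered reads), likewise too few. Of the 11 erythroid and megakaryocyte genes, 3 were tested, 2 of them under 1 RPKM in 4T1-GMP, and the third, Itga2b, was at least 2-fold lower, with sums of 22.3 and 6.13 RPKM and 4 hemoglobin genes listed at 0 in both libraries. How reads that match several genes were counted is not given in the sources used here, so these 0 values need not mean absent RNA. The sum over 11 lymphoid genes was 16.3 and 13.7 RPKM, nearly all of it Cd79b, with 3 genes at 0 in NTB-GMP and 4 in 4T1-GMP. For the experiments that derived MDSCs from GMPs, the methods describe depletion of BM cells positive for Ter-119, Gr-1, B220 or CD3 ahead of the sort. The part of any of these cell types in the C/EBP values was not tested.

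The labeled cell type was checked against surface marker genes. For the experiments that derived MDSCs from GMPs, the methods identify GMPs by antibodies to CD150, CD16/32, Sca-1 and c-Kit. The methods do not state this gate for the libraries used here. Kit, which encodes c-Kit, had 78.5 RPKM in NTB-GMP against 49.1 RPKM in 4T1-GMP. Of the genes of CD16/32, Fcgr3 had 53.1 and 28.6 RPKM (log2 ratio -0.89) and Fcgr2b went the other way, with 47.3 and 64.6 RPKM (0.45). Ly6a, which encodes Sca-1, and Slamf1, the CD150 gene, were under 1 RPKM in both libraries. Markers of progenitors and leukocytes that those antibodies do not cover were also present, with Cd34 at 154 and 59.4 RPKM (-1.37), Cd48 at 64.3 and 46.3 RPKM (-0.47) and Ptprc at 39.2 and 49.1 RPKM (0.32).

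The genes most like the extreme members were taken as those closest in log2 ratio among genes with a mean RPKM within 2-fold of the member, a likeness over only 2 libraries. For Cebpb they were Ell2, Sema6b, Il18rap, Depdc7 and Laptm4b, all at 1.03 or 1.04, out of 4323 candidates. For Cebpg they were Ttyh3, Tpra1, Atxn2, Atxn7 and Phc3, all at -0.56, out of 4503 candidates.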

How the data were processed

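GMP RNA of 2 groups was sequenced, with 1 library each. The authors deposited RPKM per gene symbol. The submitters' processing notes list CASAVA 1.8.2, cutadapt 1.2.1, TopHat2 2.0.13, Picard 1.97, HTSeq 0.6.1 and edgeR 3.12.1, with the mm10 build. The gene annotation and the strand setting are not given in the sources used here. Symbols were placed with GENCODE M21 and RefSeq GRCm38.p6, which are the same build.

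Whole reads and gene lengths were recovered from ratios of the RPKM for 14833 of 14833 genes above 0, with the library sizes anchored on annotated transcript lengths. Recovered reads are lower bounds where reads and length share a factor. Their totals were 9486697 in NTB-GMP and 26353075 in 4T1-GMP. The library sizes behind the RPKM were not whole numbers (10180365.2 and 30016262.8). Their ratio was 2.948, and TMM scaling of the recovered reads gave 2.953, so the deposited values may already hold TMM factors and the TMM alternative is nearly the same scaling. Rn45s, the ribosomal RNA precursor, made up 17% and 6.98% of the library size.

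No test was possible. Differences were described by fold, with exact Poisson intervals for levels, Clopper-Pearson intervals for ratios and exact conditional odds ratio intervals for pairs. The recovery was tested on simulated data. Members and lists were chosen with earlier results of these data known, and the lists were written from textbook knowledge. Named genes were the members, the 3 highest and 3 lowest tested genes of a list, regulators of C/EBP and overlapping or adjacent genes, and the 5 genes closest to the extreme members. Marker lists are given mostly by counts and sums. Ltf, Olfm4, Mmp25, Itgb2l, Ly6g, Ly6a, Slamf1 and Batf3 fall outside that rule and were chosen after their values were seen. Also not among the 3 highest or lowest were Stat3, Creb1 and, named for their promoter motifs, Ngp, Lcn2 and Fcnb. The symbol Cop1 was matched through an older symbol. Alternatives were pseudocounts of 1 and 0.01, Rn45s left out, TMM, median centring, quantile normalization, other minimum levels and 1.5-fold. For the Rn45s alternative, unscaled Rn45s reads were subtracted from library sizes that may already hold TMM factors. Its shift is therefore not a clean measure of what Rn45s does to the scaling. Computations used Python 3.11.15, numpy 2.4.6, scipy 1.17.1 and matplotlib 3.10.9.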

Additional observations from a re-analysis of the deposited data

How the results depend on the processing

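The members had 36 log2 ratios over 6 alternatives, and 7 of these left the interval given in the report while 29 did not. No ratio past 2-fold turned sign. Leaving Rn45s reads out of the library sizes shifted all ratios by -0.16 and put Cebpa at -0.52, Cebpe at 0.37, Cebpg at -0.72 and Cebpz at -0.15. This setting subtracted unscaled reads from sizes that appear TMM-scaled, so the shift may come from mixing scales. Quantile normalization put Cebpa at -0.51, Cebpe at 0.32 and Cebpz at -0.11, and the cause was not tested. Ratios between members within a library do not change with a common scaling. The count of genes past 2-fold, 337 higher and 511 lower (39.7% of calls higher), was 299 lower with a pseudocount of 1, 170 and 181 with a minimum mean RPKM of 5, 734 and 1246 with all genes above 0, and 1017 and 1209 at 1.5-fold, as fewer or more genes could pass by construction. Without Rn45s reads 27.1% of the calls were higher (260 and 700 genes). The looser motif was in 6 granule gene promoters and the palindrome in 0. Of 234 list counts, 37 moved by over 1.5 times and the others stayed within that. Depth limits Socs3 and Trib1 through their few NTB-GMP reads, and Trib2 through its 1 read in 4T1-GMP. No paired analysis was possible because 1 library per group leaves nothing to pair, and leaving out a replicate was not possible either.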
